A study of Rattus norvegicus with 4 samples.

Results

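Voltage-gated sodium channel genes were read by 14 probe sets of an Affymetrix rat array, and these are described here in the MAT-LyLu and G lines of the Dunning rat prostate tumour. The 14 were all probe sets that the platform annotation gives to Scn1a, Scn2a, Scn3a, Scn4a, Scn8a, Scn9a, Scn10a or Scn2b, or 8 of 4737 genes named on the array. The table held 8799 probe sets, of which 59 are array controls and 8740 are rat probe sets. No probe set listed one of these 8 genes among several symbols. Total RNA was hybridised to 4 arrays, 2 of MAT-LyLu, which the submitters call highly metastatic, and 2 of G, which they call non-metastatic and used as the control. Each line is a single subline of the R3327 tumour; the labels name no treatment, passage or separate culture, so each p-value rests on array-to-array spread that can be purely technical. The line and the degree of metastasis cannot be told apart.

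A voltage-gated sodium channel is a large alpha subunit that forms the pore, opens when the membrane depolarises and lets sodium ions into the cell, joined by small beta subunits that tune its gating and act as adhesion molecules. Scn1a, Scn2a, Scn3a and Scn8a encode alpha subunits best known from the brain, Scn9a and Scn10a those of peripheral sensory neurons, and Scn4a that of skeletal muscle, while Scn2b encodes a beta subunit. MAT-LyLu cells are known to carry a tetrodotoxin-sensitive sodium current that takes part in their invasiveness, and the product of Scn9a, Nav1.7, has been described as the main alpha subunit there. Of these genes, Scn3a and Scn2a are next to each other in the GRCr8 gene table, as are Scn1a and Scn9a, with Scn7a beside Scn9a; Scn2b lies next to Scn4b.

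RefSeq start regions (GRCr8, 250 bases before to 50 after the annotated gene start) were matched for 7 of the 8 genes. Among the matched alpha subunits, the windows with the fewest and the most CG pairs, those of Scn2a and Scn8a, are shown beside that of Scn9a, whose 2 probe sets were both higher in MAT-LyLu; CG pairs are in capitals. They are Scn2a on the plus strand of chr3:70710706-70711005, Scn9a on the minus strand of chr3:71701328-71701627, and Scn8a on the plus strand of chr7:133860977-133861276.
Scn2a: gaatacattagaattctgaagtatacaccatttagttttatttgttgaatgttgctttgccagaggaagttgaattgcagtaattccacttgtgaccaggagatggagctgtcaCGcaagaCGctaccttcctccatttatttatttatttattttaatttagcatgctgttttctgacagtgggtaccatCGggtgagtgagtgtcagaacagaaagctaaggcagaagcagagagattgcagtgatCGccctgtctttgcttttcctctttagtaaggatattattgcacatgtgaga
Scn9a: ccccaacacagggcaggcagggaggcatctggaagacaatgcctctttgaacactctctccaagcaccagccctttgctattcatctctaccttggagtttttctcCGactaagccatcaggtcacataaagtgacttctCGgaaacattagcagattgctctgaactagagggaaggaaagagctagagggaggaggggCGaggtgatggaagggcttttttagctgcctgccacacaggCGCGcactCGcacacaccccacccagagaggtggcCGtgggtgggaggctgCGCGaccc
Scn8a: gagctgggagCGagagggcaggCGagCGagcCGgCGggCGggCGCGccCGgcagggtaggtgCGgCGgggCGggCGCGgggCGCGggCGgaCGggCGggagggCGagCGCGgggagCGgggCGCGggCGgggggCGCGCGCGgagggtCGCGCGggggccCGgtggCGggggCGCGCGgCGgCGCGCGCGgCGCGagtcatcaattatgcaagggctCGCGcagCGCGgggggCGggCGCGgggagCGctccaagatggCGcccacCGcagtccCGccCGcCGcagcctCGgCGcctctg
The Scn8a window held 60 CG pairs and was 84.7% G or C, and 0.0538% of the 33469 windows of this length held as many. The Scn9a window held 9 pairs at 56.0% G or C, a count that 44.3% of the windows reached, and the Scn2a window 4 pairs at 39.3%, which 69.3% reached. The median of all windows was 7 pairs and 51.7%. A GC box (GGGCGG, both strands) was found in 1 of the 7 windows, that of Scn8a, where it occurred 7 times, against 33.1% of all windows. TATAAA was in 0 of 7, against 14.2%. An E box (CANNTG) was in 5 of 7, that of Scn9a once, against 72.1%. The arrays measure transcripts and not these regions, so the letters are given as a description of the genes.

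The signals below are MAS5 probe set signals as deposited, on a linear scale, and no probe set's level is set against that of another gene. Background was read from 23 control probe sets for bacterial, yeast and mouse transcripts. That these transcripts were not added to the sample was assumed and not checked. Their 95th percentile was 1891 and 2311 on the MAT-LyLu arrays and 1973 and 2143 on the G arrays, and the median control signal ran from 797 to 900. Array medians were 2998 and 3015 in MAT-LyLu and 3156 and 3049 in G. Of all rat probe sets, 56.7% lay above the background level on all 4 arrays and 30.1% on none. Of the 14 sodium channel probe sets, 2 lay above it on all 4 arrays, both of them reading Scn4a, while 10 lay above it on none and 2 on some. Signals under this level carry only an upper bound on the transcript, so the log2 differences of these 10 are fitted values, printed to set them beside the controls, and do not measure the size of a change.

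Differences are in log2(signal + 16), MAT-LyLu minus G, tested with limma over all rat probe sets left after the 25% with the lowest mean signal over the 4 arrays were set aside. That limit was a mean of 1525 signal units, and 5 of the 14 probe sets, of 4 genes, passed it. The nearest inside was Scn9a probe set U79568_s_at with a mean of 1871 and the nearest outside was Scn8a probe set AF049239_s_at with 1346. At an adjusted p under 0.05 (Benjamini-Hochberg over all probe sets tested), 0 of the 5 were called, and 1 had an unadjusted p under 0.05. Of all 6555 probe sets tested, 34.1% were called and 42.1% had an unadjusted p under 0.05. In the limma fit with no filter, which includes every member, 2 of 14 were called, both with higher signals in MAT-LyLu: Scn1a and Scn9a probe set AF000368_at. Both are among the 10, and neither was called once signals under the background level were raised to it. Over all 8740 probe sets of that fit 28.6% were called, and of the 2185 that the filter sets aside 14.1% were called and 5.63% were called higher. The median log2 difference was 0.06 over the 14, against -0.02 over all rat probe sets.

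**Figure D1:**
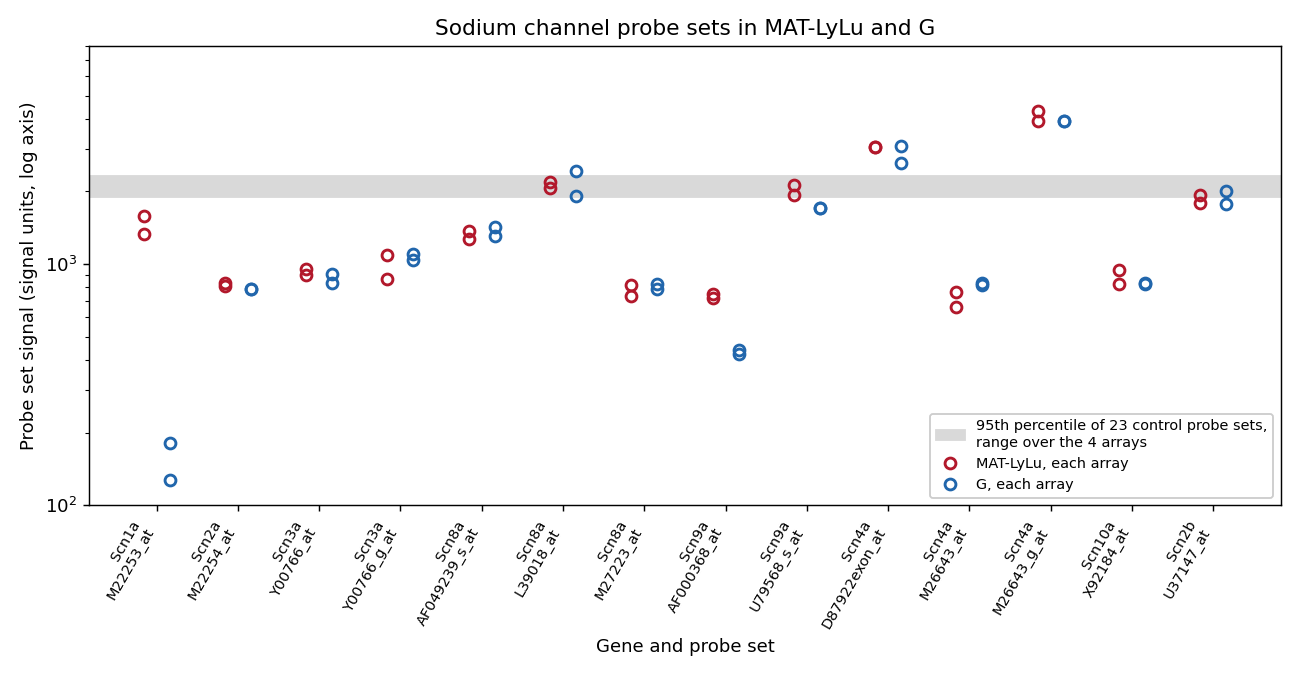
Signal of each of the 14 sodium channel probe sets (signal units, log axis) on each MAT-LyLu array (red, left) and each G array (blue, right); the grey band is the range, 1891 to 2311, of the background level over the 4 arrays. Only the Scn4a probe sets D87922exon_at and M26643_g_at lie above the band on all 4 arrays, and Scn1a and Scn9a AF000368_at show the widest gaps between the lines, below it.

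Among the alpha subunits of brain, Scn1a had the widest gap between the lines' signals. Scn1a probe set M22253_at had signals of 1584 and 1338 on the MAT-LyLu arrays, against 126 and 181 on the G arrays. Both MAT-LyLu arrays were higher than both G arrays, and all 4 signals were under the background level. In total RNA of a whole culture, fewer cells with a transcript and less of it per cell cannot be told apart. The MAT-LyLu signals were within the range of the control signals, 260 to 2893, and both G signals were under the lowest of them. The fitted log2 difference was 3.13 (adjusted p = 7.3e-06 in the limma fit with no filter), but it was 0.02 (adjusted p = 0.94) with every signal under the background level raised to it, since no array then holds a signal of its own. Of the 2628 probe sets under the background level on all 4 arrays, 12.2% were called in the fit with no filter. Those that differed by at least as much as Scn1a in either direction were 4, or 0.152%, Scn1a itself included. Scn1a was looked at for its wide gap, so this share is not a test. Without the floor at the background level the fitted value of Scn1a ran from 2.81 to 3.37 with other pseudocounts, scalings and variance models and with each array left out.

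The other brain alpha subunits had differences near 0. Scn2a, the channel of early axon initial segments, had signals of 832 and 807 in MAT-LyLu and 786 and 787 in G at probe set M22254_at. The MAT-LyLu arrays were both above the G arrays by a small step, with a fitted log2 difference of 0.06. Scn3a, which is most active in the developing brain, was read by 2 probe sets made from the same sequence entry. Its probe set Y00766_at had signals of 958 and 904 in MAT-LyLu and 833 and 910 in G, and Y00766_g_at had 870 and 1089 in MAT-LyLu and 1039 and 1099 in G. The lines overlapped at both, and the fitted differences had opposite signs, at 0.09 and -0.13.

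Scn8a, the alpha subunit of nodes of Ranvier that is also found in macrophages and in other invasive cells, was read by 3 probe sets and was called by none. Its probe set L39018_at had signals of 2067 and 2180 in MAT-LyLu and 1911 and 2428 in G, with 1 of the 2 arrays of each line above background. The lines overlapped, with a log2 difference of -0.02 (SE 0.12, adjusted p = 0.92 in limma), and the sign turned under both other scalings and without MAT-LyLu replicate 0 or G replicate 1. Probe set AF049239_s_at had 1368 and 1273 in MAT-LyLu and 1431 and 1311 in G, and M27223_at had 735 and 818 in MAT-LyLu and 789 and 829 in G. Both were under background on every array and overlapped between the lines, with fitted differences of -0.05 and -0.06.

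Scn9a had higher signals in MAT-LyLu at both of its probe sets, and 1 of them was called in the fit with no filter. Probe set AF000368_at had 722 and 748 in MAT-LyLu, against 422 and 440 in G. The lines were well apart and each pair of arrays lay close together, but all 4 signals were under the background level. The fitted log2 difference was 0.75 (adjusted p = 0.0030 in the limma fit with no filter), but it was 0.02 (adjusted p = 0.94) with signals raised to the background level. Without that floor, over the other pseudocounts, scalings and variance models and with each array left out it ran from 0.69 to 0.79, with adjusted p-values from 0.0011 to 0.037.

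Probe set U79568_s_at of Scn9a, whose _s suffix marks a design that can match related transcripts, had 2134 and 1939 in MAT-LyLu, against 1701 and 1710 in G. Both MAT-LyLu arrays were above both G arrays, and 1 of the 4 arrays, of MAT-LyLu, was above its background level. The G signals at this probe set thus give only an upper bound, which limits the reading of its difference. The log2 difference was 0.25 (SE 0.09, 95% interval 0.03 to 0.47) and the adjusted p = 0.077 in limma, with an unadjusted p of 0.029. It passed under quantile normalization (0.30, adjusted p = 0.046) and median scaling (0.30, adjusted p = 0.043). With signals raised to the background level the difference was 0.11 (adjusted p = 0.68 in limma). With each array left out in turn it ran from 0.18 to 0.32. U79568_s_at was the tested sodium channel probe set with the smallest p. Over the 4 arrays, the genes whose centred log2 signals lay nearest to it were Higd1a, Parp2, Pigf, Klc1 and Tcf4, at Euclidean distances of 0.04 to 0.05. For Scn1a, looked up after its values were seen and with no filter, they were Tmsb15b2, Tpd52, Bex3, Kiaa0040 and Gpr15lg, at 0.14 to 0.37. With 2 lines, such a likeness says little more than that the size of the difference is alike.

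Scn10a, the tetrodotoxin-resistant channel of pain-sensing neurons, had signals of 824 and 944 in MAT-LyLu and 829 and 838 in G at probe set X92184_at. All 4 were under background and the lines overlapped, with a fitted log2 difference of 0.08.

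Scn4a, the muscle alpha subunit, was the member with signals above background on all 4 arrays, at 2 of its 3 probe sets, and none of the 3 was called. Its probe set M26643_g_at had 4314 and 3914 in MAT-LyLu and 3920 and 3914 in G, a log2 difference of 0.07 (SE 0.09, 95% interval -0.13 to 0.27, adjusted p = 0.59 in limma). Probe set D87922exon_at had 3053 and 3058 in MAT-LyLu and 3077 and 2628 in G, a difference of 0.10 (SE 0.10, 95% interval -0.13 to 0.33, adjusted p = 0.48 in limma). The lines overlapped at both. Probe set M26643_at, from the same sequence entry as M26643_g_at, had 763 and 661 in MAT-LyLu and 820 and 833 in G, all under background. There both MAT-LyLu arrays were below both G arrays, with a fitted log2 difference of -0.21, so the 3 probe sets of Scn4a did not share a sign. Of 13 skeletal muscle markers measured, such as Ckm and Myog, 7 were above background on all 4 arrays and 4 on none. Of the 10 tested, 1 was higher in MAT-LyLu (Myh4, under background) and 1 lower (Pvalb). Over all tested probe sets 13.9% were called higher and 20.3% lower. The part of muscle transcripts in the Scn4a signal was not tested.

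Scn2b, whose beta subunit binds the alpha subunit through a disulfide bond, had signals of 1792 and 1928 in MAT-LyLu and 1780 and 2005 in G at probe set U37147_at. All were under background and the lines overlapped, with a fitted log2 difference of -0.02 (adjusted p = 0.89 in limma).

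Set against the 23 control probe sets, most of the family had log2 differences within the range of the controls. How many of all rat probe sets lay within it was not counted. The controls had log2 differences from -0.23 to 0.35 with a median of 0.09, and 12 of the 14 sodium channel probe sets lay inside that range. Scn1a and Scn9a AF000368_at lay outside it. The lines' arrays did not overlap at 5 of the 14, of which 4 were higher in MAT-LyLu, and at 11 of the 23 controls, of which 9 were higher. Over all rat probe sets 64.2% did not overlap, and 27.9% did not overlap and were higher in MAT-LyLu.

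**Figure D2:**
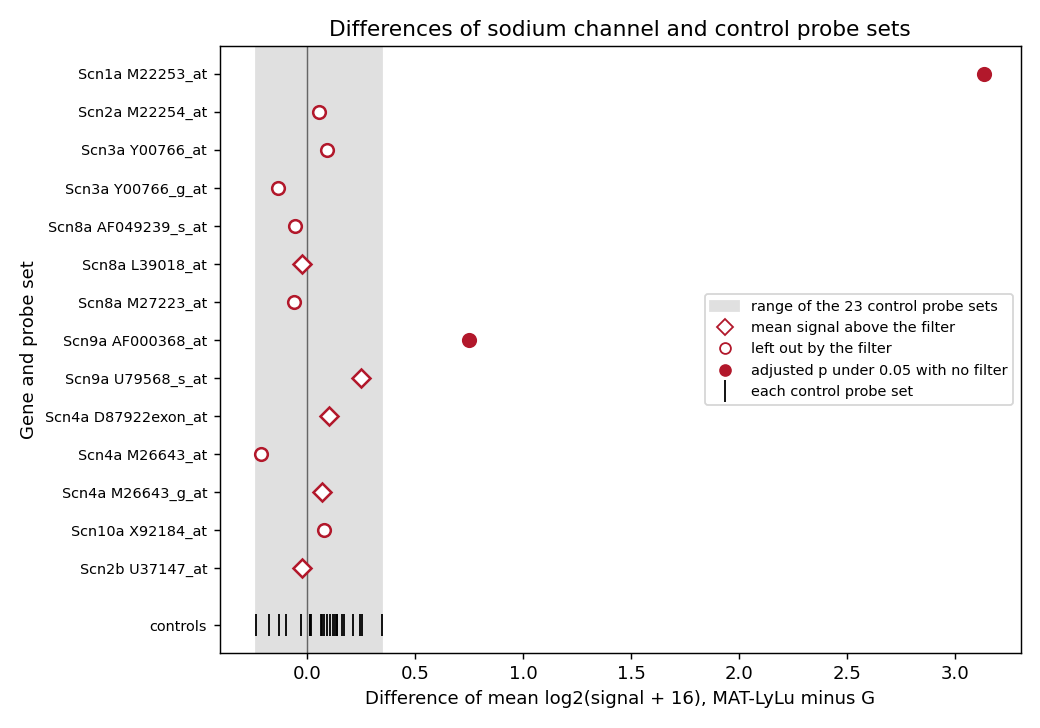
Difference of mean log2(signal + 16), MAT-LyLu minus G, for each of the 14 sodium channel probe sets (diamonds, mean signal above the filter; circles, left out by it; filled, adjusted p under 0.05 with no filter) and for each of the 23 control probe sets (ticks; grey band, their range of -0.23 to 0.35). Scn1a at 3.13 and Scn9a AF000368_at at 0.75 lie outside the band and the other 12 inside it.

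Sodium channel genes outside the 8 were on the array for Scn7a and Scn11a. Scn7a, which encodes the sodium-sensing channel Nax, had signals of 6427 and 6549 in MAT-LyLu, against 5354 and 5704 in G, at probe set S75991_at, all above background. Its log2 difference was 0.23 (SE 0.08, adjusted p = 0.066 in limma), and it passed under quantile normalization (adjusted p = 0.048) and median scaling (adjusted p = 0.033). Its other probe set, rc_AA925248_at, had 697 and 485 in MAT-LyLu and 191 and 359 in G, all under background. Scn11a, the alpha subunit of small sensory neurons known as Nav1.9, had 2689 and 2922 in MAT-LyLu, against 2071 and 2480 in G, above background on all 4 arrays. Its log2 difference was 0.30 (SE 0.11, adjusted p = 0.070 in limma), and without G replicate 1 it was 0.43 (adjusted p = 0.017). At each of these 3 probe sets both MAT-LyLu arrays were above both G arrays, as they were at 27.9% of all rat probe sets.

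Of 21 measured genes for channel partners and regulators, 17 were tested, and by the brightest tested probe set of each 4 were higher in MAT-LyLu, 1 was lower and 12 were not called. Over all tested probe sets 13.9% were called higher and 20.3% lower. The median log2 difference of the 17 was 0.09, against -0.03 over all tested probe sets. S100a10, which carries several channels, Nav1.8 among them, to the cell surface, rose in MAT-LyLu with signals of 33333 and 32609, against 19607 and 18352 in G (1.74-fold, adjusted p = 5.1e-04 in limma). Ank3, the ankyrin that anchors sodium channels at the axon initial segment, rose with 6647 and 6710 in MAT-LyLu, against 5271 and 4971 in G (1.30-fold, adjusted p = 0.0079 in limma). Its probe set AF069525_at was higher too (log2 difference 0.56, adjusted p = 0.0034), and the third that was tested was not called (0.30, adjusted p = 0.058).

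Nedd4, a ubiquitin ligase whose family removes sodium channels from the membrane, rose with 28808 and 27936 in MAT-LyLu, against 23568 and 19801 in G (1.31-fold, adjusted p = 0.034 in limma). Ywhah, a 14-3-3 protein, rose 1.46-fold (adjusted p = 0.0085 in limma) at its brighter probe set and was higher at the other (adjusted p = 0.034). Neither Nedd4 (adjusted p = 0.18 and 0.15) nor Ywhah (0.063 and 0.086) passed without MAT-LyLu replicate 0 or without MAT-LyLu replicate 1. Camk2d, a calmodulin-dependent kinase that phosphorylates the cardiac sodium channel, was lower with 5863 and 4902 in MAT-LyLu, against 10520 and 9353 in G (log2 difference -0.89, SE 0.11, adjusted p = 5.6e-04 in limma). Rest, the repressor of neuronal genes, was not called (log2 difference 0.09, adjusted p = 0.49), nor were the adhesion partners Nfasc, Cntn1 and Cntn2 (from -0.19 to 0.02). The kinase subunit Prkaca was not called with all arrays (log2 difference -0.25, adjusted p = 0.23 in limma), and without G replicate 0 the difference was -0.46. Its dimmer probe set X57986mRNA_s_at went the other way and was not called (0.22, adjusted p = 0.11). Counting every tested probe set of these genes, 7 of 28 were higher and 4 lower, among them Mapk14 probe sets of both signs.

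Of 19 measured genes of sodium handling, 18 were tested. By the brightest tested probe set of each 1 was higher in MAT-LyLu, 2 were lower and 15 were not called. Their median log2 difference was -0.10, against -0.03 over all tested probe sets. Over all 31 tested probe sets of these genes, 2 were called higher and 3 lower, against 13.9% and 20.3% of all tested probe sets. Slc12a2, the sodium-potassium-chloride cotransporter, was higher with 10288 and 10537 in MAT-LyLu, against 8966 and 7289 in G (1.28-fold, adjusted p = 0.040 in limma). Fxyd1, or phospholemman, a regulator of the sodium pump, was lower with 6721 and 6482 in MAT-LyLu, against 10152 and 8671 in G (log2 difference -0.51, adjusted p = 0.0056 in limma). Its other probe set, rc_AA799645_at, was lower by more, with 2939 and 2986 in MAT-LyLu and 13892 and 11548 in G (log2 difference -2.09, adjusted p = 2.8e-06). Asic2, an acid-sensing sodium channel, was lower at probe set U53211_at (log2 difference -0.28, adjusted p = 0.033 in limma). There it had 3404 and 3595 in MAT-LyLu, against 4379 and 4148 in G. Its dimmer probe set Y14635_s_at went the other way, with 2210 and 2307 in MAT-LyLu, against 2067 and 2013 in G. That difference was 0.15 and was not called (adjusted p = 0.25 in limma). The call of Slc12a2 was lost without either MAT-LyLu array or G replicate 1 (adjusted p from 0.091 to 0.16). That of Asic2 was lost without either MAT-LyLu array, without G replicate 0 or with median scaling (adjusted p from 0.051 to 0.15). The sodium pump subunit Atp1b1 (-0.27, adjusted p = 0.13) and the exchanger Slc8a2 (-0.16, adjusted p = 0.19) were not called; Atp1b1 passed without G replicate 1 (adjusted p = 0.018). Atp1b2, named after its values were seen, had at its brightest probe set 6623 and 6660 in MAT-LyLu and 7578 and 1770 in G, so the G arrays themselves were far apart. That probe set was not called (adjusted p = 0.28), and without G replicate 0 it was (log2 difference 1.90, adjusted p = 3.7e-06). Of its other probe sets, D90048exon_at was called higher (log2 difference 0.30, adjusted p = 0.042) and D90048exon_g_at was not (adjusted p = 0.99). The epithelial sodium channel genes Scnn1a, Scnn1b and Scnn1g had differences of -0.01, -0.13 and 0.09 and were not called.

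The growth factor list held growth factors, their receptors and the kinase subunit genes Prkar1a, Prkar2a and Prkacb, chosen as inputs to sodium channel expression or current. In this list 1 gene was called by its brightest tested probe set, with more calls at other probe sets. Of 13 measured, 11 were tested and 1, Tgfa, was higher in MAT-LyLu, with 8837 and 7978, against 4674 and 3771 in G (1.99-fold, adjusted p = 3.9e-04 in limma); it encodes a ligand of the EGF receptor. At their brightest probe sets the others were not called, among them Ngfr, a nerve growth factor receptor (-0.26, adjusted p = 0.094), Igf1 (-0.24, adjusted p = 0.099), Prkar1a (0.17, adjusted p = 0.25) and Ntrk2 (-0.16, adjusted p = 0.29). The median log2 difference of the 11 was -0.02. Over all 19 tested probe sets of these genes, 3 were called higher and 3 lower, against 13.9% and 20.3% of all tested probe sets. The other calls lay in 3 genes. Igf1, an insulin-like growth factor, was lower in MAT-LyLu at M15481_g_at, with 2039 and 2042, against 10370 and 9453 in G (adjusted p = 6.2e-07), and at X06107_i_at, with 1942 and 2108, against 6078 and 4535 (adjusted p = 1.6e-04). 1 of the MAT-LyLu arrays was above background at each. Ngfr was lower at X05137_at (log2 difference -0.34, adjusted p = 0.016). Bdnf, a neurotrophin, was higher at S76758_i_at, with 2696 and 2906 in MAT-LyLu, against 1441 and 1795 in G, and at D10938exon_s_at, with 2349 and 2390, against 1730 and 1560 (adjusted p = 0.0015 and 0.0035), with G under background at both. At their brightest probe sets, without G replicate 0 Ngfr passed (adjusted p = 0.022), and without G replicate 1 Igf1 did (0.042).

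**Figure D3:**
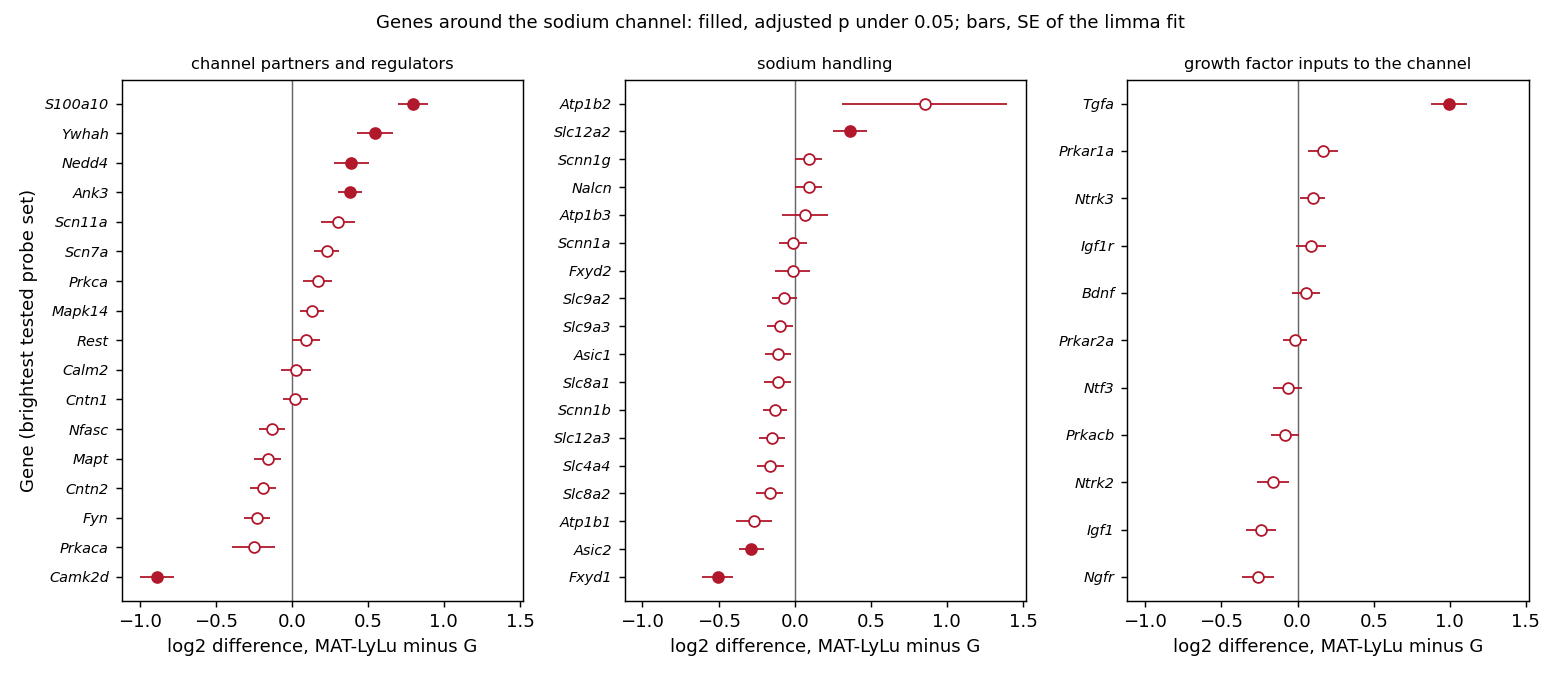
Log2 difference, MAT-LyLu minus G, of the brightest tested probe set of each gene among channel partners and regulators (17 genes), sodium handling (18) and growth factor inputs (11); bars are the SE of the limma fit and filled points have an adjusted p under 0.05. Of the filled points, S100a10 and Tgfa lie highest in their panels and Camk2d and Fxyd1 lowest; Atp1b2, an open point, has the widest bar.

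The lines were checked against markers. Beside the counts below, 13.9% of all tested probe sets were called higher in MAT-LyLu and 20.3% lower. Of 11 prostate and epithelial markers measured, 3 were above background on all 4 arrays and 5 on none. Of the 7 tested, Krt8, a keratin of simple epithelia, was higher in MAT-LyLu and 6 were not called, Krt18 and Krt5 among them. The prostate genes Pbsn and Tgm4 were under background on every array. Of 11 neuron markers, 6 were above background on all arrays and 3 on none; by the brightest tested probe set of a gene, 0 were called higher in MAT-LyLu (0 also at an unadjusted p under 0.05 in limma) and 2 lower. These were Uchl1, under background on both MAT-LyLu arrays, and Nefh. At its dimmer probe set X13804cds_at Nefh was not called (log2 difference -0.03, adjusted p = 0.83 in limma). The summed signal of the neuron list was 32005 and 33657 in MAT-LyLu and 53859 and 51993 in G. Without Uchl1 it was 30533 and 32027 in MAT-LyLu and 32678 and 32105 in G, so Uchl1 carried most of the gap. Map2 was not called at its brightest probe set (log2 difference -0.03, adjusted p = 0.84 in limma). It was called higher in MAT-LyLu at X53455cds_s_at, a dimmer probe set (0.39, adjusted p = 0.025), with both G arrays under background. In the limma fit with no filter it was also called higher at U30938_at, with 1889 and 1894 in MAT-LyLu and 483 and 354 in G (2.15, adjusted p = 1.7e-05). The same held for S74265_s_at (1.39, adjusted p = 0.0016). Both were under background on every array, as Scn1a was. Nefl was called lower at M25638_s_at, also a dimmer probe set (log2 difference -0.36, adjusted p = 0.012 in limma). Of 5 glial markers measured, 4 were tested, and by the brightest tested probe set 3 were lower in MAT-LyLu (S100b, Pmp22 and Cnp). The summed signal of the brightest probe sets was 15189 and 15070 in MAT-LyLu and 41560 and 40449 in G. At their other probe sets S100b (log2 difference -0.13, adjusted p = 0.28 in limma) and Pmp22 (-0.14, adjusted p = 0.33) were not called. The part of these cell types' transcripts in the sodium channel signals was not tested.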

How the data were processed

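Probe set signal was measured on 4 Affymetrix arrays, 2 of MAT-LyLu and 2 of G, grouped by their titles. The authors deposited 1 table of signal intensity per probe set, made with MAS5 per the submitters' processing notes; for its version, scaling target and filters the sources used here give nothing. The values were used without further scaling.

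Names came from the platform annotation (1 symbol for 7018 probe sets, several for 308, none for 1473), updated through GRCr8 RefSeq gene identifiers (6994 matched). Values were taken as log2(signal + 16), the lowest 25% of rat probe sets by mean signal left out, and compared with limma 3.58.1 in R 4.3.3 (lmFit, eBayes with an intensity trend, 2-sided, Benjamini-Hochberg). The procedure was tested on simulated data. Changes were put only into brighter probe sets, so the simulation does not cover dim ones, such as most of the sodium channel probe sets. With 2 arrays a line a permutation test cannot go below p = 0.333. The number of arrays limits the precision.

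The plan took all 41 non-rat controls as background; 18 of them belong to transcripts that are spiked in, and 9 were bright, so the other 23 were used. Alternatives were other pseudocounts (1, 64), filters, scalings and background levels, no trend, a replicate block, a floor at background and each array left out. The members, lists and tests were chosen with earlier results of these data known. The text names all members, the 5 list genes with the smallest p and any listed Scn gene; others it names were chosen after their values were seen.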

Additional observations from a re-analysis of the deposited data

How the results depend on the processing

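With 0 of 5 tested sodium channel probe sets called, the count stayed at 0 with pseudocounts of 1 and 64, with the lower 50% left out (1 tested), with no trend, with signals raised to background and without each array (0 to 0). It was 1 with quantile normalization and 1 with median scaling, both Scn9a U79568_s_at, and 2 of 14 with no filter. Above background on all 4 arrays were 2 probe sets, also by the highest control, but 5 by the 75th percentile of the controls and 0 with the spiked-in controls included. Without each array in turn, calls among channel partners were 3 to 6, among sodium handling genes 1 to 3 and among growth factor genes 1 to 2. Growth factor calls were 2 with quantile normalization, and over all tested probe sets of a gene calls were 11 of 28 for partners, 5 of 31 for sodium handling and 6 of 19 for growth factors, the last 2 counts added after seeing the data. All probe sets called numbered 1688 to 2498 over all alternatives, against 2238.

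Uncalled differences near 0 changed sign. With quantile normalization and median scaling Scn8a L39018_at was 0.028 and 0.024, and Scn2b 0.027 and 0.022; with the floor Scn2b was 0.024. Without each array in turn Scn8a L39018_at ran from -0.19 to 0.15, Scn2b from -0.11 to 0.062, Scn4a D87922exon_at from -0.010 to 0.22 and Scn4a M26643_g_at from -0.0012 to 0.14. The cause was not tested.

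Replicate numbers are shared by the lines, but nothing in the labels ties them to a batch (correlation of deviations 0.16, 1 value for the 2 pairs). With the replicate block 0 sodium channel probe sets were called, 2388 of all probe sets, and Scn7a (adjusted p = 0.043), Scn11a (0.036) and Atp1b1 (0.049) passed. The fits of Scn1a and Scn9a with no filter combined with other choices were added after seeing the data. Signals under the background level limit 10 of the 14 probe sets to bounds in both lines, and Scn9a U79568_s_at to a bound in G.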
